A study of Mus musculus with 48 samples.

Results

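Aim1l and Rec8 are 2 of the 22354 gene lines counted in the liver RNA of mice whose adipocytes lacked Bmal1, an activator at the core of the circadian clock, and of WT mice. They were picked by symbol because their level had been seen to be lower in KO mice throughout the day, so every KO minus WT value of these genes is given here as a description and with no test. The KO livers came from 23 female C57BL/6J mice labelled KO for Bmal1 (symbol Arntl), and they were set against those of 25 female C57BL/6J mice labelled WT. Both genotypes were sampled every 4 h from ZT0 to ZT20, with 4 mice of each genotype per time, except 3 KO and 5 WT mice at ZT16. All mice, WT mice included, had spent 1 day in constant darkness and had been fasted for 24 h when the liver was taken, and they were 28.75 to 105 weeks old. The labels do not name the Cre line that made the deletion adipocyte specific, and they do not say whether WT mice carried floxed alleles or Cre.

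Cohesin is a ring of proteins that holds sister chromatids together and folds chromatin into loops. Rec8 is a kleisin that closes the ring in meiosis, in place of Rad21. Separase cuts Rec8 when chromosomes and then chromatids part in the meiotic divisions, and Rec8 is known best from germ cells. Aim1l (absent in melanoma 1-like, now named Crybg2) encodes a protein of the beta-gamma crystallin superfamily, the family of the structural proteins of the eye lens, and is named for its likeness to Aim1.

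Aim1l (ENSMUSG00000012123) lies on mouse chromosome 4, from 133621827 to 133648419 in build mm9. Rec8 (ENSMUSG00000002324) lies on chromosome 14, from 56236874 to 56244232 in the same build. RefSeq gives a promoter window of 250 bases before and 50 bases after the start of each gene in build GRCm38.p6. These windows are shown because the mean level of both genes was lower in KO livers. The Aim1l window is chr4:134068202-134068501 and the Rec8 window is chr14:55617916-55618215, both on the + strand, read 5′ to 3′.
Aim1l: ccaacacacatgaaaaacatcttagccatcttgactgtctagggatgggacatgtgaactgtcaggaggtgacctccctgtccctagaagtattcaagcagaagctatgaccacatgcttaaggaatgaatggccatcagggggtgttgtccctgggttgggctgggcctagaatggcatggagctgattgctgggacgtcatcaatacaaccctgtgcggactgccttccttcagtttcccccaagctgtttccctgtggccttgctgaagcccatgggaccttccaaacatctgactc
Rec8: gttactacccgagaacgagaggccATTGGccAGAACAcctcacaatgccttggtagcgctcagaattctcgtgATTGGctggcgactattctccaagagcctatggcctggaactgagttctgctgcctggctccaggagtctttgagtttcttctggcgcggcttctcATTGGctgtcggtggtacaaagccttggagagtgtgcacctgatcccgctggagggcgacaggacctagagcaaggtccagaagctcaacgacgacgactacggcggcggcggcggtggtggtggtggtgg
The capitals mark every match to 5 motifs searched on both strands. These were the E-box CACGTG, to which Bmal1 binds with its partner Clock; the AP-1 site TGAGTCA or TGACTCA; the glucocorticoid receptor half-site TGTTCT or AGAACA; the GC box GGGCGG; and the CCAAT box, which reads ATTGG on the other strand. The Rec8 window held 1 AGAACA, at position -219 from the start, and 3 ATTGG, at -226, -177 and -81. The Aim1l window held none of these letters, and neither window held CACGTG. Of the 32851 promoter windows of the same length in RefSeq, 7.15% held the E-box, 5.2% the AP-1 site, 19% the half-site, 35.7% the GC box and 37.4% the CCAAT box. The RefSeq start used is inside the gene as GENCODE draws it in GRCm38 for both genes: Aim1l begins there at 134060815 and Rec8 at 55618037, so that the ATTGG at -81 is within the GENCODE gene. Each window is therefore that of 1 annotated start, and which start is used in these livers was not analysed here.

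Each library held 12841969 to 13009797 counts on genes other than Alb, and 13646 genes had enough counts to be tested, Aim1l and Rec8 among them. Both were low. Aim1l had 3 to 28 counts in a KO library (median 8) and 2 to 126 in a WT library (median 42). Rec8 had 2 to 18 counts in KO libraries (median 6) and 6 to 80 in WT libraries (median 22). No library of either genotype was at 0 for either gene. Because the tissue is bulk liver, fewer cells that express a gene and less RNA in each such cell cannot be told apart. Arntl itself averaged 18.1 ± 13.2 CPM (counts divided by the TMM-scaled library size, in the usual CPM unit) in KO livers and 18.4 ± 14.1 CPM in WT livers (SD over all times, n = 23 and n = 25); liver is not the tissue of the deletion, so this does not check the genotype labels. Over all times KO mice weighed 24.2 ± 3.57 g and WT mice 21.8 ± 2.0 g (SD). The gap was not the same at every time. At ZT8 the KO mice weighed 25.5 to 34.5 g and the WT mice 21.6 to 23.1 g. At ZT20 the genotypes overlapped, with 19.1 to 21.9 g in KO and 18.7 to 22.0 g in WT.

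Over all times Aim1l averaged 0.773 ± 0.496 CPM in KO livers (SD, n = 23; median 0.665, range 0.242 to 2.18) and 3.40 ± 2.18 CPM in WT livers (SD, n = 25; median 3.07, range 0.153 to 10.5). Its log2 difference, KO minus WT, was -2.10 (SE 0.26), which puts the KO level at 23.3% of the WT level. Among all genes tested it had the 8th lowest log2 difference by rank. Rec8 averaged 0.564 ± 0.361 CPM in KO livers (SD, n = 23; median 0.451, range 0.155 to 1.37) and 1.94 ± 1.23 CPM in WT livers (SD, n = 25; median 1.61, range 0.502 to 6.14). Its log2 difference was -1.82 (SE 0.22), a KO level 28.4% of the WT level, and its rank was 15. For scale, 188 genes (1.38% of those tested) differed between genotypes at an adjusted p under 0.05 in edgeR's quasi-likelihood test, 104 (0.762%) lower and 84 (0.616%) higher in KO.

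The mean of each gene was lower in KO at 6 of 6 times, as it was for 664 genes (4.87%) in all. Since this is how the genes were chosen, the count says nothing more about them. How single mice lay at each time comes from the same values by which the genes were chosen. The counts that follow are therefore a description and no test. For Aim1l every KO mouse was below every WT mouse at 4 times, ZT0, ZT4, ZT8 and ZT12. For Rec8 this held at 4 times too, ZT0, ZT4, ZT12 and ZT16. The share of all genes with such a gap was 1.77% (ZT0), 3.98% (ZT4), 0.791% (ZT8), 1.9% (ZT12), 0.594% (ZT16) and 0.476% (ZT20); 1183 genes (8.67%) had it at 1 or more times and 5 (0.0366%) at 4 or more. All 23 KO mice were below the WT median of their own time for Aim1l, and 22 of 23 were for Rec8. This count was not made for the other genes, so it has no background to be set against.

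**Figure D1:**
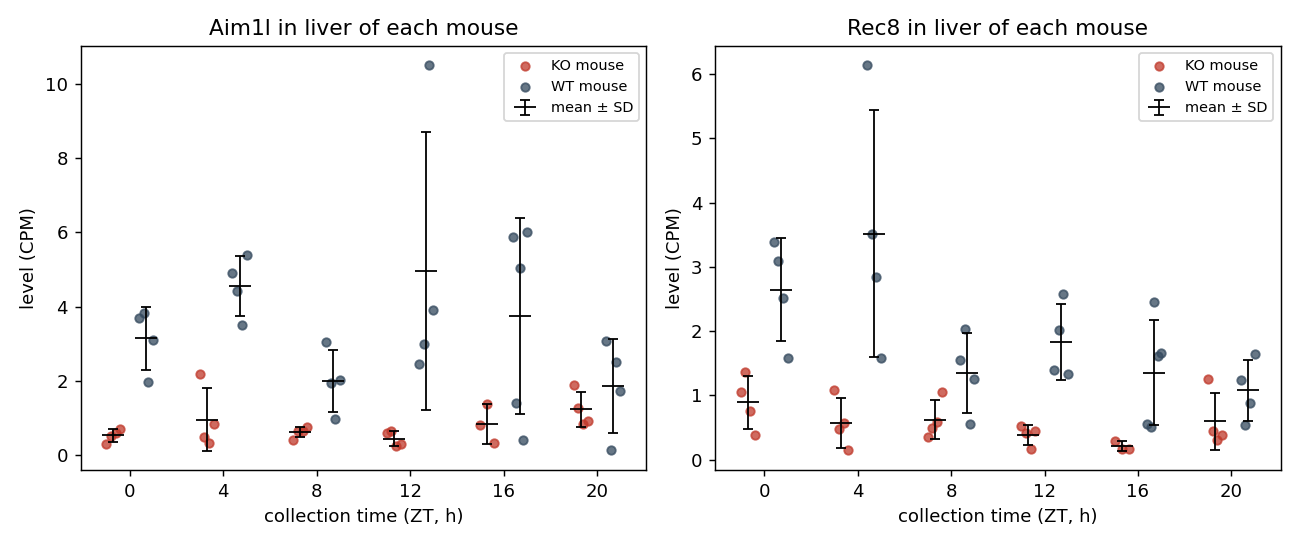
Level in CPM (vertical axis) of Aim1l (left) and Rec8 (right) in the liver of each mouse against collection time in hours (ZT), with KO mice in red to the left of WT mice in dark blue at each time; black bars are the mean ± SD of 3 to 5 mice. KO mice lie at or below 2.18 CPM for Aim1l and 1.37 CPM for Rec8. The KO and WT mice of the same time overlap at ZT16 and ZT20 for Aim1l and at ZT8 and ZT20 for Rec8.

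At ZT0 the Aim1l levels were 0.300, 0.533, 0.610 and 0.702 CPM in KO mice, against 3.70, 3.83, 1.97 and 3.10 CPM in WT mice. The groups were far apart, and the log2 difference was -2.53 (SE 0.64). At ZT4 the levels were 2.18, 0.483, 0.329 and 0.850 CPM in KO mice, against 4.91, 4.43, 3.51 and 5.38 CPM in WT mice. The WT mice were close together here, 1 KO mouse stood above the other 3, and the log2 difference was -2.23 (SE 0.60). At ZT8 the levels were 0.426, 0.665, 0.659 and 0.75 CPM in KO mice, against 3.05, 1.96, 0.986 and 2.02 CPM in WT mice. The lowest WT mouse came near the highest KO mouse, and the log2 difference was -1.67 (SE 0.63).

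At ZT12 the Aim1l levels were 0.603, 0.666, 0.242 and 0.300 CPM in KO mice, against 2.46, 2.99, 10.5 and 3.91 CPM in WT mice. The WT mouse at 10.5 CPM had the highest level of all 48 mice. The log2 difference, -3.43 (SE 0.65), was -2.76 without this mouse. At ZT16 the levels were 0.817, 1.39 and 0.327 CPM in KO mice, against 5.87, 1.42, 5.04, 0.425 and 6.02 CPM in WT mice. The WT mice fell into 3 high and 2 low ones, and the lower of these was below 2 of the 3 KO mice. The log2 difference was -2.15 (SE 0.66). The mean age at this time was 60.33 weeks in KO and 73.4 weeks in WT, and with age as a covariate the difference was -1.32. At ZT20 the levels were 1.89, 1.28, 0.849 and 0.922 CPM in KO mice, against 3.07, 0.153, 2.50 and 1.72 CPM in WT mice. The lowest Aim1l level of all 48 mice was in a WT liver, with 2 counts, and all 4 KO mice were above it. The log2 difference at ZT20 was -0.59 (SE 0.59), no larger than its error. It was -0.97 without that WT mouse, -0.25 without the WT mouse at 3.07 CPM, and -0.38 with a replicate block. "Lower throughout" thus describes the means of Aim1l, while at ZT16 and ZT20 its groups overlapped.

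Rec8 at ZT0 was at 1.05, 1.37, 0.763 and 0.390 CPM in KO mice, against 3.39, 3.10, 2.52 and 1.58 CPM in WT mice. The highest KO mouse and the lowest WT mouse were close, and the log2 difference was -1.55 (SE 0.49). At ZT4 its levels were 1.09, 0.483, 0.575 and 0.155 CPM in KO mice, against 6.14, 3.52, 2.84 and 1.58 CPM in WT mice. Both groups were widely spread without touching, and the log2 difference was -2.59 (SE 0.51). At ZT8 the levels were 0.355, 0.498, 0.586 and 1.05 CPM in KO mice, against 1.56, 2.04, 0.564 and 1.25 CPM in WT mice. Here 2 KO mice were above the lowest WT mouse, and the log2 difference was -1.10 (SE 0.52), or -0.67 with body weight as a covariate.

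At ZT12 the Rec8 levels were 0.527, 0.417, 0.161 and 0.450 CPM in KO mice, against 1.39, 2.02, 2.58 and 1.33 CPM in WT mice. The groups were well apart, with a log2 difference of -2.20 (SE 0.54). At ZT16 the levels were 0.297, 0.174 and 0.163 CPM in KO mice, against 0.563, 0.502, 2.45, 1.61 and 1.66 CPM in WT mice. All 3 KO mice were low, with 2 to 4 counts each, and the log2 difference was -2.62 (SE 0.65). At ZT20 the levels were 1.26, 0.451, 0.309 and 0.384 CPM in KO mice, against 1.24, 0.535, 0.886 and 1.65 CPM in WT mice. A single KO mouse was inside the WT range, and the other 3 were below all WT mice. The log2 difference was -0.84 (SE 0.53). It was -1.48 without that KO mouse and -0.58 without the WT mouse at 1.65 CPM.

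**Figure D2:**
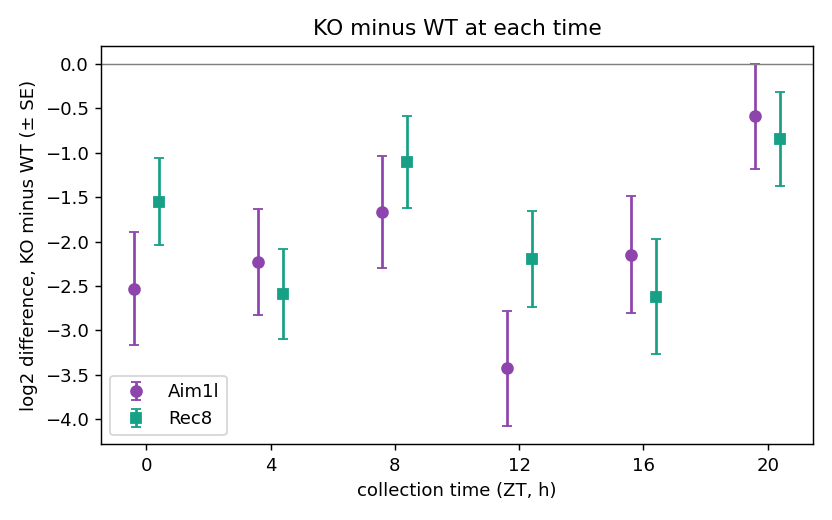
Log2 difference, KO minus WT (vertical axis), of Aim1l (circles) and Rec8 (squares) against collection time in hours (ZT); bars are ± 1 SE from the fit to all 48 libraries, and the grey line marks no difference. All 12 points are below 0, and the point nearest to 0 is that of Aim1l at ZT20 (-0.59, SE 0.59).

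Whether the difference changed with time was tested as the interaction of genotype with time. The adjusted p was 0.954 for both genes (unadjusted p = 0.0613 for Aim1l and 0.107 for Rec8, edgeR quasi-likelihood test with 5 degrees of freedom and Benjamini-Hochberg adjustment over all genes), a test that 1 gene (0.00733%) of all passed. The genes were chosen with the values at each time in view, so this test is not independent of the choice.

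In order of the group means, Aim1l in KO livers was lowest at ZT12 (0.453 CPM), followed by ZT0 (0.536), ZT8 (0.625), ZT16 (0.845), ZT4 (0.961) and ZT20 (1.24). In WT livers the order was ZT20 (1.86 CPM), ZT8 (2.0), ZT0 (3.15), ZT16 (3.75), ZT4 (4.56) and ZT12 (4.96). All 6 KO means were below all 6 WT means, but neighbours within each order overlapped in their single mice. Rec8 in KO livers ran through ZT16 (0.211 CPM), ZT12 (0.389), ZT4 (0.576), ZT20 (0.602), ZT8 (0.622) and ZT0 (0.893). In WT livers it ran through ZT20 (1.08 CPM), ZT8 (1.35), ZT16 (1.36), ZT12 (1.83), ZT0 (2.65) and ZT4 (3.52). Again all 6 KO means were below all 6 WT means, and neighbours within each order overlapped.

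Neither gene passed the test for a rhythm of 24 h in either genotype. The amplitude of a cosine fitted to log2 CPM, from mean to peak, was 0.48 (SE 0.21) for Rec8 in KO livers, peaking at ZT2.1 (SE 1.6 h), and 0.57 (SE 0.19) in WT livers, peaking at ZT3.6 (SE 1.3 h). The adjusted p was 0.158 in KO and 0.0515 in WT (edgeR quasi-likelihood test, Benjamini-Hochberg), while 17% of genes passed in KO and 16.3% in WT. The WT value is at the edge of the threshold. A test of any difference between the 6 times gave Rec8 an adjusted p of 0.0479 in WT (8.52% of genes passed) and 0.25 in KO (9.68% passed). Leaving out 1 library moved the rhythm's adjusted p in WT between 0.0225, without WT ZT16 replicate 3, and 0.197, without WT ZT4 replicate 1, the mouse at 6.14 CPM. For Aim1l the amplitude was 0.30 (SE 0.27) in KO and 0.34 (SE 0.26) in WT, with adjusted p of 0.552 in KO and 0.717 in WT. The rhythms of the genotypes were not shown to differ for either gene (adjusted p = 1; 1 gene, 0.00733%, passed).

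The spread between mice of a group was wide for both genes. Within groups the counts of Aim1l had an SD of 6.01 in KO and 26.7 in WT, where counting error alone would give 3.16 in KO and 6.63 in WT. For Rec8 the SD was 4.35 in KO and 12.8 in WT, against 2.70 in KO and 5.01 in WT from counting. On log2 CPM the within-group SD was 0.87 for Aim1l and 0.65 for Rec8. The coefficient of variation over all mice was near the same in both genotypes, 64.1% in KO and 64.1% in WT for Aim1l, and 64.1% in KO and 63.6% in WT for Rec8.

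Within groups the 2 genes went weakly together. The residuals of log2 CPM from the group means had a Pearson r of 0.34 (permutation p = 0.0644 within groups, 100000 draws, two-sided; adjusted 0.0644 over 3 relations) and a Spearman rho of 0.39 (permutation p = 0.0202, adjusted 0.0202) over 48 mice. Without the 2 mice whose Aim1l residuals were farthest from their median, WT ZT16 replicate 4 and WT ZT20 replicate 2, r was 0.40 (permutation p = 0.013). By genotype r was 0.38 in KO mice (permutation p = 0.151) and 0.33 in WT mice (permutation p = 0.2). The libraries also differed in their GC slope. This is the slope, on gene GC percent, of each gene's log2 CPM minus the mean of that gene over libraries. It was fitted over 9634 genes with a mean log2 CPM over 2. Per 10 GC points it ran from -0.80 to 0.61, on average -0.10 ± 0.38 in KO and 0.09 ± 0.40 in WT (SD). Both genes are GC-rich, 59.4% for Aim1l and 56.7% for Rec8 against a median of 49.4% over the same 9634 genes. The slope correlated with the level within groups, with r = 0.52 (rho 0.55; adjusted permutation p = 0.011 and 0.00288) for Aim1l and r = 0.47 (rho 0.44; adjusted permutation p = 0.011 and 0.00798) for Rec8. Without the 2 mice whose residuals were farthest from each gene's median residual, r was 0.62 for Aim1l and 0.41 for Rec8. With the first within-group principal component removed, the r between Aim1l and Rec8 was 0.13 (permutation p = 0.49). With the GC slope of each library as a covariate, the KO minus WT difference was -1.86 for Aim1l and -1.65 for Rec8 over all times. At ZT4, with this covariate, the difference was -1.76 for Aim1l and -2.13 for Rec8. The part of the GC slope in the differences was not tested, nor was the source of the slope.

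Body weight and age were tested as slopes within groups, which the choice of the genes did not use. Per gram of body weight Aim1l had a log2 slope of 0.083 (SE 0.076, adjusted p = 0.872) and Rec8 one of -0.081 (SE 0.063, adjusted p = 0.846; both from edgeR), and 0 genes (0%) passed, with 895 at an unadjusted p under 0.05. Per 10 weeks of age, with 1 slope for both genotypes, Aim1l had a log2 slope of 0.237 (SE 0.079; unadjusted p = 0.00476, adjusted p = 0.596) and Rec8 one of 0.118 (SE 0.069, adjusted p = 0.823). By the same test 3 genes (0.022%) passed for age.

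Slopes on age for each genotype were fitted after the levels of single mice and their ages had been seen. At 38 weeks the Aim1l level was 0.817 and 1.39 CPM at ZT16 and 1.28 CPM at ZT20 in KO mice, against 1.42 and 0.425 CPM at ZT16 and 0.153 CPM at ZT20 in WT mice. The highest and the 2 lowest of these 6 mice were WT, and the groups overlapped. At 105 weeks, at ZT16, it was 0.327 CPM in the KO mouse and 5.04 CPM in the WT mouse, and the WT mice of 93 weeks had 5.87 and 6.02 CPM. The slope per 10 weeks was -0.09 (SE 0.114, adjusted p = 0.89) in KO mice and 0.403 (SE 0.085, adjusted p = 0.0425, edgeR quasi-likelihood test) in WT mice. In KO 1 gene (0.00733%) passed this test and in WT 9 genes (0.066%) passed. The difference of the slopes, KO minus WT, was -0.492 (SE 0.143; unadjusted p = 0.00143), and it missed the threshold over all genes (adjusted p = 0.0651; 3 genes, 0.022%, passed). The WT call was lost in 26 of 48 fits that left out 1 library (adjusted p from 0.0254 to 0.253), and the slope itself stayed between 0.342 and 0.454. Without ZT16, where the oldest mice were, the WT slope was 0.358 (adjusted p = 0.609). Without the KO mouse of 105 weeks (KO ZT16 replicate 3), the KO slope was 0.094 and the difference of slopes -0.302 (unadjusted p = 0.11). The difference was -0.262 (adjusted p = 1) without ZT16, and its adjusted p ran from 0.017 to 1 over the fits that left out 1 library. It passed without KO ZT4 replicate 1 (0.017), KO ZT4 replicate 3 (0.0461) or WT ZT20 replicate 4 (0.0473).

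For Rec8 the level at 38 weeks was 0.297 and 0.174 CPM at ZT16 and 0.451 CPM at ZT20 in KO mice, against 0.502 and 1.61 CPM at ZT16 and 0.535 CPM at ZT20 in WT mice. The highest of these KO mice was just below the lowest of these WT mice. The slope per 10 weeks was 0.027 (SE 0.129, adjusted p = 0.981) in KO and 0.155 (SE 0.082, adjusted p = 0.315) in WT, and the slopes were -0.128 apart, KO minus WT (edgeR, SE 0.154, adjusted p = 0.667). Whether the slopes of the 2 genes differ was not tested. Age went with collection time, and mice taken at ZT20 averaged 42.12 weeks in both genotypes.

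**Figure D3:**
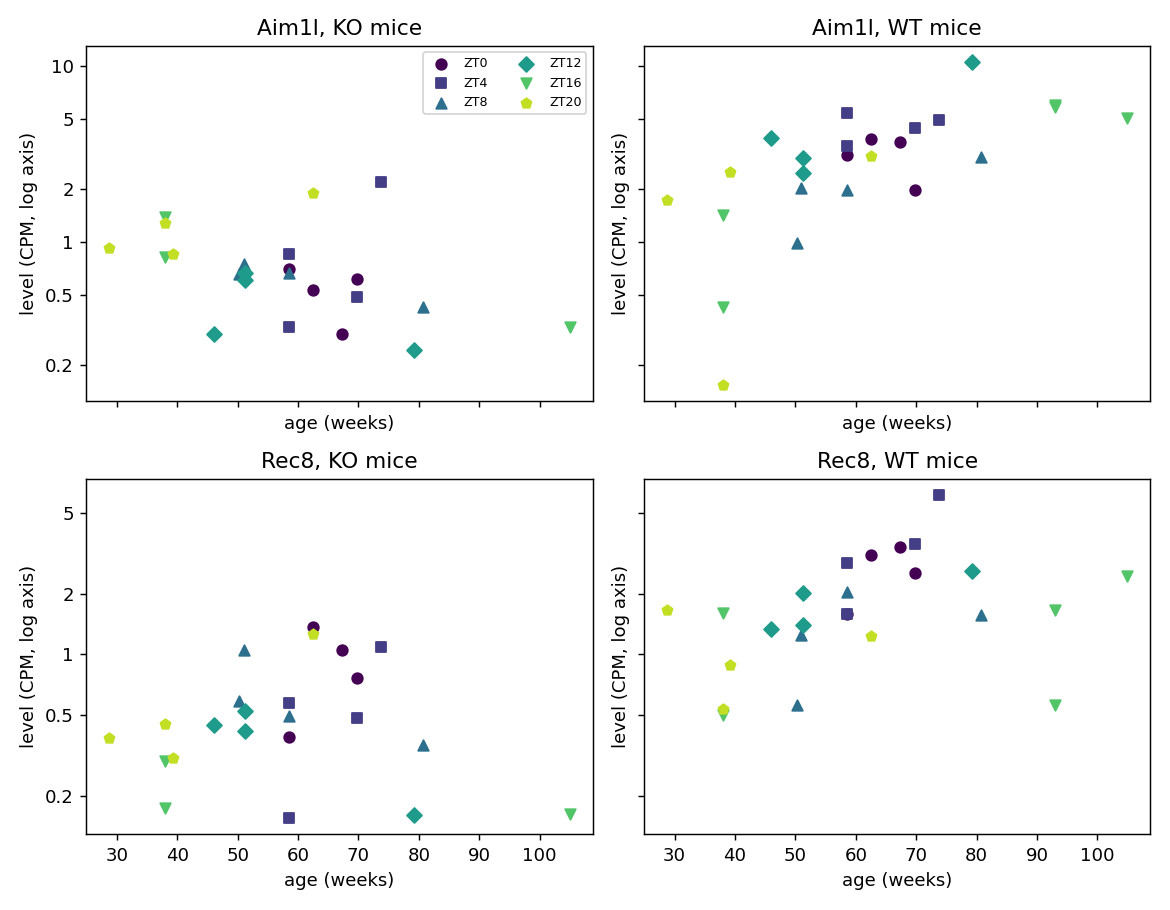
Level in CPM (vertical axis, log scale) against age in weeks for Aim1l (top) and Rec8 (bottom), with KO mice on the left and WT mice on the right; each point is a mouse, and colour and shape give the collection time. The lowest Aim1l points of WT mice, 0.153 and 0.425 CPM, are mice of 38 weeks, and the KO mice of that age lie at 0.817 to 1.39 CPM.

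Genes beside the pair on the chromosome were compared by taking 3 lines of the table on each side. Of these 12 neighbours, 8 had enough counts to be tested and 0 passed in either direction (2 had an unadjusted p under 0.05; 0 passed in DESeq2). With 1.38% of all genes passing in edgeR, 17.1% at an unadjusted p under 0.05 and 2.61% passing in DESeq2, a count of 0 among 8 is near the background and says nothing particular of the neighbours. Next to Aim1l, Cd52, a surface glycoprotein of lymphocytes whose gene overlaps Aim1l on the opposite strand in GENCODE's GRCm38 annotation, had 8.25 ± 3.73 CPM in KO and 8.60 ± 4.64 CPM in WT, a log2 difference of -0.02 (SE 0.20, adjusted p = 0.959). Dhdds, an enzyme of dolichol synthesis, had a log2 difference of -0.16 (SE 0.13), and Sh3bgrl3 one of -0.35 (SE 0.23). The log2 differences of these 3 genes beside Aim1l ran from -0.35 to -0.02. Lin28a, Gm13060 and Ubxn11 had too few counts.

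Beside Rec8, Ipo4, a nuclear import receptor whose gene ends 5 bases from Rec8, had 19.6 ± 9.42 CPM in KO and 22.9 ± 10.5 CPM in WT, a log2 difference of -0.22 (SE 0.19, adjusted p = 0.534). Irf9, a transcription factor of the interferon response, had 41.6 ± 8.72 CPM in KO and 35.4 ± 7.20 CPM in WT, a log2 difference of 0.21 (SE 0.07, unadjusted p = 0.00545, adjusted p = 0.127). Psme2, a proteasome activator subunit, had a log2 difference of 0.14 (SE 0.07, unadjusted p = 0.0448, adjusted p = 0.284). Rnf31 and Tm9sf1 were at -0.12 (SE 0.17) and -0.26 (SE 0.19), and Tssk4 had too few counts. The neighbours of Rec8 therefore had log2 differences from -0.26 to 0.21.

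**Figure D4:**
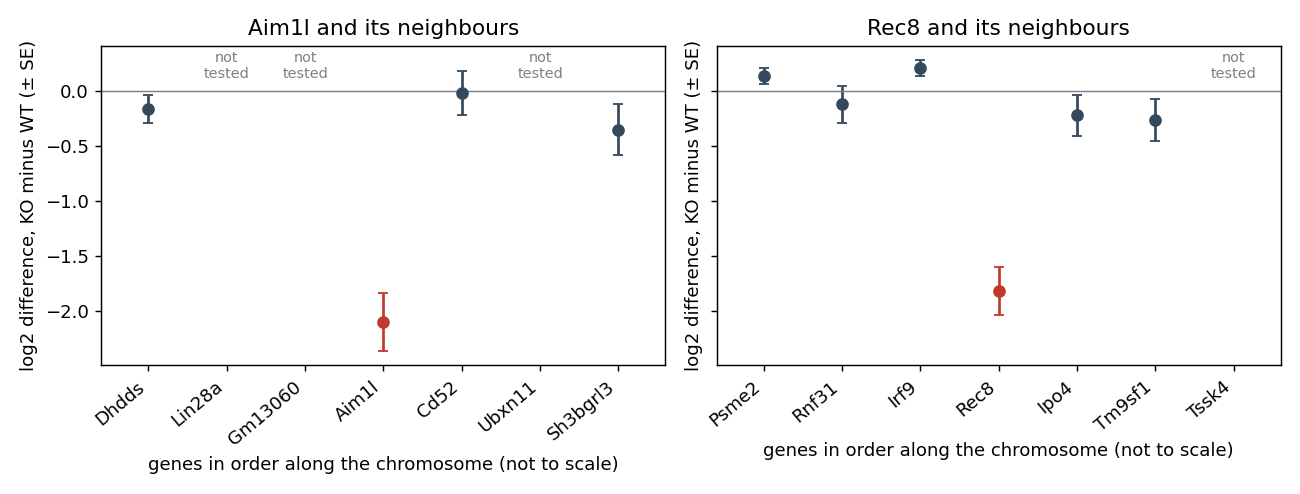
Log2 difference, KO minus WT, over all times (vertical axis) for Aim1l (left, red) and Rec8 (right, red) and the 3 lines of the table on each side in dark blue, in chromosomal order; bars are ± 1 SE and genes with too few counts are marked as not tested. Aim1l is at -2.10 and Rec8 at -1.82, and their tested neighbours lie between -0.35 and 0.21.

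For the other genes of cohesin, a count of 0 passing is near the background and says nothing particular of them. Of 21 subunits and regulators listed, 20 were in the table and 14 were tested, of which 0 were higher and 0 lower in KO at an adjusted p under 0.05 (edgeR; 1 had an unadjusted p under 0.05, 0 passed in DESeq2, and 1.38% of all genes passed); the median log2 difference was 0.11, against 0 for all genes tested. Rad21, the kleisin that Rec8 replaces in meiosis, had 64.6 ± 13.2 CPM in KO and 61.6 ± 10.5 CPM in WT, a log2 difference of 0.06. Smc1b, the meiotic form of the ring subunit Smc1a, had 0.432 ± 0.239 CPM in KO and 0.327 ± 0.334 CPM in WT, a log2 difference of 0.56 with an SE of 0.26 (edgeR, adjusted p = 0.269). It had the smallest p of the list. Stag3, the meiotic partner of Rec8 in the ring, was under the filter with 0.121 ± 0.108 CPM in KO and 0.132 ± 0.131 CPM in WT (SD).

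Of 23 genes of meiotic prophase, 20 were in the table and 9 were tested. An unadjusted p under 0.05 was found for 2 of them (17.1% of all genes), and 1 passed in DESeq2 (2.61% of all genes). In edgeR 1 rose in KO (0.616% of all genes did), 0 fell (0.762% of all genes did), and the median log2 difference was 0.13. The one that rose was Mnd1, a cofactor of strand exchange in meiotic recombination, with 7.92 ± 2.25 CPM in KO and 6.18 ± 1.18 CPM in WT, a log2 difference of 0.35 with an SE of 0.09 (edgeR, adjusted p = 0.0333). Its direction is opposite to that of Rec8. The call was lost without any 1 of 9 libraries (KO ZT4 replicates 3 and 4, KO ZT12 replicate 3, KO ZT16 replicate 3, KO ZT20 replicate 4, WT ZT8 replicates 1, 3 and 4, and WT ZT12 replicate 2), each of which left a count of 0. It was also lost with no filter on low counts, with body weight or the library GC slope as a covariate, and with a replicate block. The count of the list stayed at 1 with DESeq2, with its size factors in edgeR, with age as a covariate and without ZT16. Sycp1 and Sycp3, proteins of the synaptonemal complex, were near the floor at 0.0514 ± 0.0823 and 0.0806 ± 0.104 CPM in KO and 0.0697 ± 0.11 and 0.113 ± 0.144 CPM in WT (SD).

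Of 16 relatives of Aim1l in the beta-gamma crystallin superfamily, 9 were in the table and 3 were tested, with 0 passing in edgeR or DESeq2, 0 at an unadjusted p under 0.05, and a median log2 difference of -0.03; with 1.38% of all genes passing in edgeR, 0 of 3 is near the background. Aim1, the gene after which Aim1l is named, had 26.4 ± 6.54 CPM in KO and 29.4 ± 8.11 CPM in WT, a log2 difference of -0.14 (adjusted p = 0.475, edgeR). Crybg3 had 13.2 ± 3.42 CPM in KO and 13.1 ± 3.43 CPM in WT, a log2 difference of 0.02.

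Markers of liver cell types were set beside these results as whole lists. Of 66 markers tested in 9 lists, 0 passed in either direction in edgeR, 10 had an unadjusted p under 0.05, and 4 passed in DESeq2, 2 of them neutrophil, 1 cholangiocyte and 1 stellate cell or fibroblast markers; the shares of all genes were 1.38%, 17.1% and 2.61%. Hepatocyte genes were abundant in every liver (9 of 9 tested, summed levels of 12600 to 49500 CPM in KO and 16900 to 44700 CPM in WT), with a median log2 difference of -0.16. The 6 tested cholangiocyte markers summed to 25.8 to 162 CPM over 7 listed genes in KO and 22.9 to 169 CPM in WT, with a median log2 difference of -0.06. For 11 markers of T, NK and B lymphocytes the sums were 3.30 to 19.8 CPM in KO and 4.90 to 52.1 CPM in WT (median log2 difference -0.13). For Kupffer cells and macrophages the sums were 130 to 703 CPM in KO and 141 to 1270 CPM in WT (0.04), for stellate cells and fibroblasts 189 to 783 CPM in KO and 152 to 785 CPM in WT (-0.16), and for sinusoidal endothelium 149 to 351 CPM in KO and 158 to 315 CPM in WT (-0.01). Neutrophil markers summed to 2.02 to 591 CPM in KO and 1.97 to 474 CPM in WT. Their log2 difference was below 0 for 8 of 8 tested, with a median of -2.04. The median summed level was 7.18 CPM in KO and 8.06 CPM in WT. Also below 0 were 9 of 9 hepatocyte, 9 of 10 stellate cell and fibroblast and 8 of 11 lymphocyte markers tested. The counts were 4 of 8 for sinusoidal endothelium, 3 of 6 for cholangiocytes and 3 of 10 for Kupffer cells and macrophages. For adipocytes and exocrine pancreas they were 0 of 2 each. Adipocyte markers, 2 of 7 tested, summed to 6.08 to 83.6 CPM in KO and 8.78 to 50.1 CPM in WT (0.09). Exocrine pancreas markers, 2 of 9 tested, summed to 4.21 to 368 CPM in KO and 5.02 to 11.4 CPM in WT (0.88). Their median summed level was 8.71 CPM in KO and 6.95 CPM in WT, so the KO maximum was far from most KO livers. The ranges of KO and WT livers overlapped for every list, and the part of these cell types in the levels of Aim1l and Rec8 was not tested.

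Genes with the pattern most like each of the 2 were sought among 12028 genes whose mean log2 CPM was 0 or more, as a description. Over the residuals of 48 mice, Aim1l was most like C130039O16Rik (Pearson r = 0.71), the corepressor Bcor (0.71), Ubap2l (0.69), Axin2, a feedback inhibitor of Wnt signalling (0.69), and Trak1 (0.69). Rec8 was most like the tubulin gene Tubb5 (0.72), Cdt1, which licenses DNA replication (0.71), Zfp524 (0.70), the growth factor gene Vegfb (0.70) and Rilpl2 (0.66). None of these 10 passed the test of KO minus WT, with log2 differences from -0.46 to -0.01. The first principal component of the within-group residuals held 50.1% of their variance over 9634 genes. High r over residuals may thus be shared by many genes, and the part of this component in the likeness was not tested. Over the 12 group means, which contain the difference the genes were chosen for, Aim1l was most like Erf (r = 0.91), Gm17586 (0.89), Alkbh6 (0.89), Neurl2 (0.88) and Kcp (0.86). Rec8 was most like Mri1 (0.92), the adenosine receptor gene Adora1 (0.91), Ddx49 (0.91), Kcp (0.91) and Zfp523 (0.90). Of these 9 genes Adora1 passed, with a log2 difference of -0.79 with an SE of 0.16 (edgeR, adjusted p = 0.00713). Kcp, which was on both lists, had -0.75 (SE 0.21, adjusted p = 0.0578). The genes ranked 6th (Rec8 for Aim1l) and 27th (Aim1l for Rec8) in each other's order over group means, with r = 0.86, and 3192nd and 2407th over residuals, with r = 0.34.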

How the data were processed

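Liver polyA RNA of 48 mice was sequenced from stranded libraries, per the labels' protocols. Reads were handled with CASAVA and STAR 2.4.1d on build mm9, per the submitters' processing notes; the counting program, its annotation and whether depth was equalised are not given in the sources used here. The deposited values are whole-number counts per gene and library, per the file headers, with symbols, identifiers and mm9 coordinates. The deposited file calls them sense-strand counts. The line of Alb holds multiples of a fixed step and was left out of library sizes and tests.

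In R 4.3.3, edgeR 4.0.16 removed low genes (filterByExpr), scaled libraries by TMM, and fitted 12 group means (genotype by time) with a quasi-likelihood test; p-values were adjusted by Benjamini-Hochberg over the 13646 genes tested, with a threshold of 0.05. Rhythm, weight and age models used the dispersion trend of that fit. Log2 CPM used a prior count of 2. Differences are KO minus WT. GC content came from the longest GENCODE transcript of a gene. DESeq2 1.42.0, RLE size factors, no filter, covariates (weight, age, library GC slope), no ZT16, a replicate block and leaving out each library were alternatives. The scripts were tested on simulated data. Libraries of a group differed by more than counting error, and nothing shows that 2 were the same; each is labelled as its own mouse. Same-numbered KO and WT mice of a time had the same labelled age in 22 of 23 pairs. Of these 23 pairs, 13 had r over 0.1 in their deviations (median r 0.16). The labels name no shared litter or day, so the main tests did not pair the mice. Pairing is thus not excluded, and the replicate block gives the values with it.

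Genes named were Aim1l, Rec8, 3 lines on each side, Rad21, Aim1 and Crybg3, list members with the smallest p, and the 5 most alike by each measure; Stag3, Sycp1 and Sycp3 were added after their values were seen. The genes and lists were chosen with earlier results of these data known.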

Additional observations from a re-analysis of the deposited data

Results flagged for a closer look

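Rec8 in KO ZT20 replicate 1 stood apart from its group: it was at 1.26 CPM, where the other 3 KO mice of that time were at 0.309, 0.384 and 0.451 CPM. It was the single case among 22 groups of 4 or 5 mice checked for the 2 genes, where chance gives about 1 in 20. The mouse was 62.5 weeks old and the others of the group were 28.75 to 39.25 weeks old. Its library had a GC slope of 0.606 per 10 GC points, against 0.028, -0.397 and 0.313 in the others. The part of age or of the GC slope in its level was not tested.

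The slope of Aim1l on age differed between genotypes at the unadjusted level, by -0.492 log2 units per 10 weeks, KO minus WT (SE 0.143, unadjusted p = 0.00143, adjusted p = 0.0651, edgeR quasi-likelihood test). The comparison was chosen after the values had been seen.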

How the results depend on the processing

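The KO minus WT difference of Aim1l was between -2.29 and -1.86 under 8 other settings and between -2.23 and -1.99 without 1 library each; that of Rec8 was between -1.84 and -1.64 and between -1.93 and -1.75. With a replicate block it was -2.06 for Aim1l and -1.76 for Rec8, 128 genes passed in place of 188, and 0 genes of meiotic prophase passed; the block changed no other call among the results it was fitted for. A rhythm within a genotype and a slope on age were not run with the block. The 188 genes passing became 118 with no filter, 37 with body weight as a covariate, 356 with DESeq2, and 95 to 479 without 1 library. The 1 meiotic gene became 0 with no filter, with body weight, with the GC slope and in 9 of 48 leave-outs (0 to 1). The Rec8 rhythm in WT had an adjusted p of 0.0479 for any difference between times, 0.0473 with RLE and 0.0225 to 0.197 without 1 library, passing in 17 of 48.

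The Aim1l age slope in WT was 0.396 with no filter (adjusted p = 0.111), 0.308 with the GC slope (0.155), 0.393 with body weight (0.118), 0.358 without ZT16 (0.609) and 0.342 to 0.454 without 1 library. In KO it was 0.096 without ZT16 and -0.176 to 0.094 without 1 library, and that of Rec8 in KO was -0.001 with the GC slope and -0.117 to 0.104 without 1 library. The difference of the Aim1l slopes was -0.262 without ZT16 and -0.578 to -0.302 without 1 library (adjusted p 0.017 to 1, passing in 3 of 48), and the slope shared by both genotypes 0.173 to 0.338, with an adjusted p of 0.0386 without KO ZT16 replicate 3. The causes were not tested. Low counts limit these genes: KO libraries held as few as 2 Rec8 counts.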
